A study of Homo sapiens with 8 samples.

Results

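The response of THP-1 cells to IPA-3 was read from 4 of the 8 arrays of the series, namely the IPA-3 arrays, 2 in number, and the 2 DMSO arrays, replicates 1 and 2, that lie on the same deposited scale. THP-1 is a human monocytic leukaemia line grown in suspension, and all 8 arrays hold total RNA from it. IPA-3 is an inhibitor of the group I p21-activated kinases (PAKs) and was given at 6 µg/mL for 5 hours. The control cells received an equal volume of DMSO, the solvent, for the same time. The other 4 arrays hold FRAX-597, an ATP-competitive PAK inhibitor, at 2 µg/mL for 5 hours (2 arrays) and DMSO replicates 3 and 4. Members were all genes that a probe names alone: of 53617 probes, 16098 carried exactly 1 gene symbol and 37519 carried none, and taking each gene's probe with the highest mean left 14884 genes. The labels do not say whether replicate arrays came from separate cultures, so each p-value reflects no more than how far these arrays scatter, and that scatter may be technical.

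PAKs are serine/threonine kinases that act on the actin cytoskeleton, adhesion and MAP kinase signalling. IPA-3 is a naphthol disulfide that binds the PAK regulatory region and keeps the kinase from being activated, while FRAX-597 competes for the ATP site. The transcription factor NRF2 is held at a low level by KEAP1, a cysteine-rich sensor protein, and when KEAP1 is modified NRF2 enters the nucleus and raises genes for thioredoxin, glutathione, NADPH and haem metabolism through the antioxidant response element. NF-kB is the main driver of chemokine and adhesion molecule transcription in monocytes, and CCR2, CXCR4, CYSLTR1 and SELPLG are among the surface receptors with which monocytic cells sense chemokines, leukotrienes and selectins.

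The 4 arrays had medians of 5.51 to 5.55 over all probes on the log2 scale, and the other 4 arrays had medians of 6.00 to 6.05. Over all probes the DMSO arrays correlated at 0.9923, the IPA-3 arrays at 0.9894, and DMSO with IPA-3 arrays at 0.9864 to 0.9902. Monocytic markers were present: LYZ (lysozyme) had a mean of 11.25 in DMSO, PRTN3 (proteinase 3) 12.64, CD68 11.88 and CSF1R (the macrophage growth factor receptor) 10.04, whereas CD14 lay at 6.40 and MPO at 5.95. No detection call accompanies the values, so 85 genes of keratin-associated proteins, which build the hair shaft, served as a reference for signal without expression. They had a median of 4.46 and a 95th percentile of 6.95 in DMSO, and that percentile is called the background level here. It is a strict cut, above the median of all named genes in DMSO (6.44). Of 14884 genes, 6199 had a group mean above it. Of 13 measured monocytic markers, 7 lay above it and 0 passed the test. Markers of T, B, erythroid, epithelial, fibroblast and neural cells were measured for 12 of 25 genes. Of these, 2 lay above the background level, 0 passed the test, and their summed level was 10.11 and 10.07 in DMSO against 10.09 and 10.26 with IPA-3.

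In the limma fit of these 4 arrays 96 of 14884 genes (0.645%) passed a Benjamini-Hochberg adjusted p of 0.05, of which 77 rose (0.517%) and 19 fell (0.128%). The rises were led by HIVEP2, CXCL8, SRXN1, OSGIN1 and HMOX1, at 3.26- to 4.86-fold, and the falls by the receptors CYSLTR1, CCR2, CXCR4 and GPR18. Called changes past 2-fold numbered 33 rises and 4 falls, and the smallest called changes were 0.69 and -0.69 on the log2 scale. At an unadjusted p under 0.05 there were 971 higher genes (6.52%) and 1280 lower ones (8.6%), 2251 in all against 744.2 expected by chance. Of the 96 genes, 77 had their higher group above the background level (62 rises and 15 falls), and 38 of the rises were already above it in DMSO. For rises that started below that level, CXCL8 and OSGIN1 among them, and for falls that ended below it, CYSLTR1 among them, 1 group is not clearly above background, so the printed size may understate the change and its rank is uncertain. All 4 differences between an IPA-3 and a DMSO array were above 0 for 2869 genes (19.3%) and below 0 for 4218 (28.3%), while the groups overlapped for 7797 (52.4%). The 96 called genes all had 4 differences of 1 sign.

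The adjusted calls rest on all 4 arrays: without DMSO 1, IPA-3 1 or IPA-3 2 the limma fit called 0 genes, and without DMSO 2 it called HIVEP2 and CXCL8 alone, although each of the 96 kept its direction. Their direction could not reverse when 1 array was left out, because all 4 differences of each called gene have 1 sign. A single fit over all 8 arrays, whose spread includes the noisier second set, called 5 of the 96, namely SRXN1, OSGIN1, C1orf21, NRCAM and CYSLTR1.

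**Figure D1:**
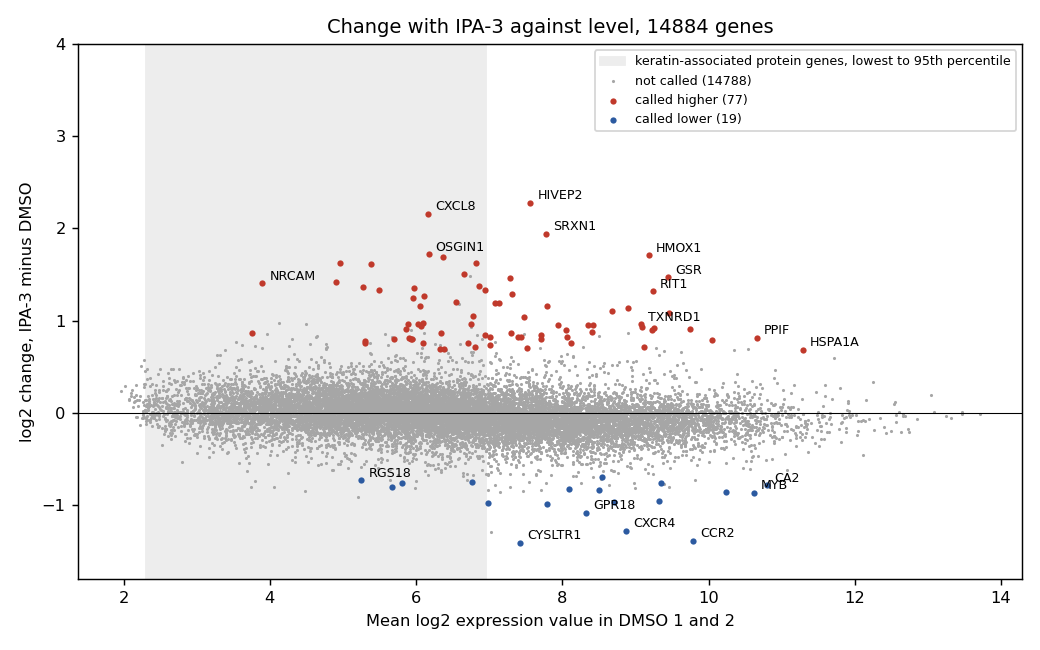
Log2 change with IPA-3 (mean of 2 IPA-3 arrays minus mean of DMSO 1 and 2, vertical axis) against the mean log2 value in DMSO (horizontal axis) for 14884 genes, with the 77 rises in red, the 19 falls in blue and the range of keratin-associated protein genes up to their 95th percentile (6.95) shaded. The rises spread over nearly the whole range of levels, from CCL20 and NRCAM near 4 to HSPA1A near 11, while the falls lie mostly to the right of the shaded range.

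Single enzymes of thiol, haem and glutathione metabolism were among the rises. SRXN1, sulfiredoxin, which repairs over-oxidised peroxiredoxins, read 7.68 and 7.86 in DMSO and 9.83 and 9.60 with IPA-3. The groups were far apart, and the change was 1.94 (SE 0.12, limma adjusted p = 0.0123), or 3.84-fold. OSGIN1, a growth inhibitor induced by oxidative stress, read 6.25 and 6.09, below the background level, against 7.93 and 7.85, a measured rise of 1.72 (SE 0.10, limma adjusted p = 0.0123). HMOX1, haem oxygenase 1, which breaks down haem to biliverdin, iron and carbon monoxide, read 9.18 and 9.19 against 10.93 and 10.84 and rose by 1.71 (SE 0.09, limma adjusted p = 0.0123). Its DMSO arrays differed by only 0.01, and both IPA-3 arrays lay above them. GSR, glutathione reductase, read 9.37 and 9.51 against 10.97 and 10.85, a rise of 1.47 (SE 0.10, limma adjusted p = 0.0158). TXNRD1, the cytosolic thioredoxin reductase, read 9.04 and 9.11 against 10.08 and 9.99 and rose 1.95-fold (0.96 log2, SE 0.09, limma adjusted p = 0.0247).

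Of 22 listed NRF2 target genes 10 were measured, and 7 of them rose: SRXN1, OSGIN1, HMOX1, TXNRD1, ABHD4 (1.24), TRIM16 (0.80) and CBR3, a carbonyl reductase (0.77). All 10 were higher in all 4 array pairs, against 19.3% of all genes, and their median change was 0.88 against -0.02 over all genes. The 3 that did not pass were PGD (0.68, limma adjusted p = 0.0909), TALDO1 (0.42, limma adjusted p = 0.156) and UGDH (0.07). This list was drawn up with earlier results of these arrays known, so its counts are no independent support for a direction.

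Most members of the wider redox lists were not called, and over all genes 0.517% were called higher. In the thioredoxin and peroxiredoxin list 2 of 20 rose, SRXN1 and TXNRD1, and the median was -0.07. At an unadjusted p under 0.05, 5 of its members were higher and 3 lower (6.52% and 8.6% of all genes). In the glutathione list GSR was the only one of 21 to rise and the median was -0.02, with GSTK1 at -0.31 and MGST1 at 0.24. In the haem and iron list HMOX1 alone of 14 rose, with FECH (ferrochelatase) at 0.37 and ALAD at -0.44. None of 8 pentose phosphate and NADPH genes passed, and their median was -0.10. Among NRF2 and its regulators SQSTM1, the autophagy receptor p62 that binds KEAP1, rose by 1.04 (limma adjusted p = 0.0184) from 7.50 and 7.46 to 8.51 and 8.52. KEAP1 itself (0.63, limma adjusted p = 0.056) did not pass. NFE2L2, which encodes NRF2 (0.51), and MAFG, its DNA-binding partner (0.52), did not pass either, at limma adjusted p-values of 0.126 and 0.131. Of the 12 measured genes on that list 5 were higher and 1 lower at an unadjusted p under 0.05. In all pairs 7 were higher and 4 lower (19.3% and 28.3% of all genes).

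Promoter sequence was set beside these changes from RefSeq windows (GRCh38.p14) of 250 bases before to 50 after a gene's start, which matched 56 of the 77 rises, 14 of the 19 falls and 10749 of all 14884 genes. The core of the antioxidant response element was searched as TGACNNNGC on both strands. A gene counted where any of its windows held a match. Some matches can overlap an AP-1 site, TGANTCA, and those printed here do not. It was present in 17.9% of the rises (10 genes), 14.3% of the falls (2 genes) and 18.1% of all genes. The heat shock element core, GAANNTTC, which reads the same on both strands, was present in 16.1% of the rises (9 genes), 14.3% of the falls (2 genes) and 7.06% of all genes. The stretches below are shown for TXNRD1, which has windows at several annotated starts, and for HSPA1A and MAP1B, rises with a heat shock element core. The capitals mark the match, each stretch reads 5′ to 3′ on the strand of the gene, and all of these genes lie on the plus strand:
TXNRD1, chr12:104215660-104215708, core at -99 to -91: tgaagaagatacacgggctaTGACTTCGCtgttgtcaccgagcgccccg
TXNRD1, chr12:104286910-104286958, core on the opposite strand at -102 to -94: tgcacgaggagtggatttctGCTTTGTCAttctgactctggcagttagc
HSPA1A, chr6:31815417-31815464, core at -106 to -99: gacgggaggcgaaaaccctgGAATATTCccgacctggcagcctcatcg
MAP1B, chr5:72179687-72179734, core at -80 to -73: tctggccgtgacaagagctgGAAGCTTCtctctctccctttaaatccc
These matches describe the letters in the windows, and binding was not measured.

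Of 16 measured heat shock genes and cochaperones HSPA1A passed. HSPA1A, the inducible HSP70, read 11.32 and 11.26 in DMSO and 11.99 and 11.96 with IPA-3, a rise of 0.69 (SE 0.09, limma adjusted p = 0.0467). On the list 8 genes were higher and 2 lower in all pairs (19.3% and 28.3% of all genes). At an unadjusted p under 0.05, 5 were higher and 0 lower (6.52% and 8.6% of all genes), and the median was 0.07. Its near-identical copy HSPA1B stood at 0.59 (limma adjusted p = 0.0734), and probes may not separate the pair. HSPA6, a strictly inducible HSP70, had a difference of 1.49 that missed the threshold (limma adjusted p = 0.106), and BAG3, an HSP70 cochaperone, one of 0.51. Of 13 genes of endoplasmic reticulum folding 0 passed in limma, and 3 were lower at an unadjusted p under 0.05 (8.6% of all genes). In all pairs 9 were lower (28.3% of all genes, and 50.8% of the most highly expressed quartile), with MANF at -0.56 and a median of -0.10. With quantile or cyclic loess normalization 7 were lower in all pairs.

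Of 19 measured ATF4 targets and amino acid response genes 2 rose, ASNS, asparagine synthetase (0.82, limma adjusted p = 0.0306), and ULBP1, a stress ligand of the NKG2D receptor (1.62, limma adjusted p = 0.034). ASNS read 7.40 in both DMSO arrays and 8.23 and 8.21 with IPA-3. ULBP1 went from 4.78 and 5.13 to 6.39 and 6.76, below the background level throughout. On the list 10 genes were higher and 2 lower in all pairs (19.3% and 28.3% of all genes), 9 were higher and 1 lower at an unadjusted p under 0.05 (6.52% and 8.6% of all genes), and the median was 0.26. ATF4 (0.39), TRIB3 (0.36) and DDIT3 (-0.01) did not pass.

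Of 20 measured genes of the NF-kB programme 5 rose. CXCL8, interleukin 8, the main neutrophil chemokine, read 6.00 and 6.33 in DMSO and 8.29 and 8.35 with IPA-3. The IPA-3 arrays lay well above both controls, which were below the background level, and the measured rise was 4.46-fold (2.16 log2, SE 0.13, limma adjusted p = 0.0123). ICAM1, the adhesion ligand of leukocyte integrins, read 4.77 and 5.02 against 6.38 and 6.26, a rise of 1.42 (SE 0.12, limma adjusted p = 0.019) that stayed below the background level. The subunit genes RELB (0.73, limma adjusted p = 0.0404) and NFKB1 (0.71, limma adjusted p = 0.044) rose, and so did the chemokine CCL20 (0.87), whose DMSO mean of 3.76 lay below the median of the keratin-associated protein genes. None of the 20 fell, 16 were higher in all 4 pairs against 19.3% of all genes, and the median change was 0.55. The 5 rises compare with 0.517% of all genes, and ICAM1 and CCL20 were below the background level in both groups. TNF (0.87), CD83 (0.86), BCL2A1 (0.85, limma adjusted p = 0.0582) and NFKB2 (0.80) did not pass, and TRAF1 had a difference of -0.36. TRAF3, an adaptor that restrains the alternative NF-kB pathway, rose by 0.88 from 8.43 and 8.38 to 9.34 and 9.23 (limma adjusted p = 0.0337).

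HIVEP2, a large zinc finger protein that binds kB-like DNA sites, had the lowest adjusted p of all genes. It read 7.60 and 7.52 in DMSO and 9.83 and 9.86 with IPA-3, a rise of 4.86-fold (2.28 log2, SE 0.09, limma adjusted p = 0.00643). Its other probe, at a mean of 3.87 in DMSO, differed by 0.56. The related HIVEP1 rose as well, from 7.08 and 7.20 to 8.35 and 8.32 (1.20, limma adjusted p = 0.0176).

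Other large rises had varied roles. MSC, the transcriptional repressor musculin, read 6.30 and 6.42 against 8.19 and 7.93 (1.69, limma adjusted p = 0.0158). The long noncoding RNA MSC-AS1 read 7.07 and 7.09 against 8.23 and 8.30, also a rise. In both, every IPA-3 array exceeded every DMSO array by more than the replicates differed. HTRA3, a secreted serine protease, went from 6.65 and 6.67 to 8.12 and 8.20, and MAP1B, a microtubule-associated protein, from 7.27 and 7.29 to 8.69 and 8.79. Their rises were 1.50 and 1.46, each at a limma adjusted p of 0.0123. ENPP2, autotaxin, the enzyme that makes lysophosphatidic acid, went from 5.31 and 5.45 to 7.14 and 6.85 (1.61), around the background level. EID3 (1.38) rose above that level, while CRIM1 (1.37) and the adhesion molecule NRCAM (1.40), at 3.82 and 3.97 against 5.44 and 5.16, stayed below it.

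Surface receptors and secreted factors were among the remaining rises. IL7R, the interleukin 7 receptor, rose by 1.33, and was the only one of 52 interleukin and interleukin receptor genes to do so. TREM1, which amplifies inflammatory signalling in myeloid cells, rose by 1.16 from 7.66 and 7.92 to 9.08 and 8.82. It was the only one of 20 innate sensing genes that passed, and over all genes 0.517% were called higher. Of those 20, 3 were higher and 6 lower at an unadjusted p under 0.05 in limma (6.52% and 8.6% of all genes). In all pairs 3 of the 20 were higher and 9 lower (19.3% and 28.3% of all genes). The complement receptor C3AR1 (0.97), the hyaluronan receptor CD44 (0.96) and NRP2 rose, as did the growth factors VEGFC (1.27), PDGFA and KITLG. RIT1, a RAS-related GTPase, read 9.18 and 9.30 against 10.64 and 10.47 (1.32). PPIF, the mitochondrial cyclophilin D, read 10.65 and 10.67 against 11.56 and 11.38, among the highest levels of any rise. The alpha-arrestins ARRDC4 (1.08) and ARRDC3 both rose.

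**Figure D2:**
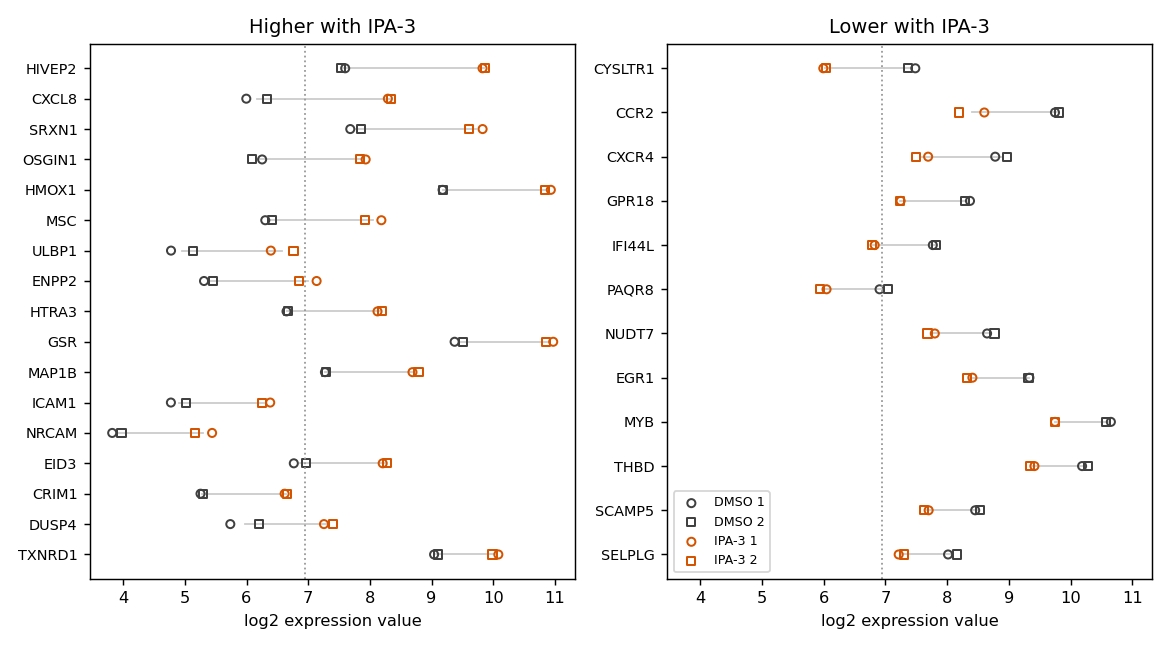
Log2 expression values (horizontal axis) of the 17 named rises and 12 named falls in each of the 4 arrays, with circles for replicate 1, squares for replicate 2, dark symbols for DMSO and orange for IPA-3, a grey line joining the group means and a dotted line at the background level of 6.95. In every row the 2 groups do not overlap, which was a condition for choosing these genes, apart from the marker TXNRD1. HIVEP2 has the widest gap (7.60 and 7.52 against 9.83 and 9.86).

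The largest falls were receptors of monocytic cells. CYSLTR1, the cysteinyl leukotriene receptor, read 7.48 and 7.36 in DMSO and 5.99 and 6.03 with IPA-3. It fell by 1.41 on the log2 scale (SE 0.09, limma adjusted p = 0.014), or a measured 2.66-fold, from above the background level to below it. CCR2, the receptor for the monocyte chemokine CCL2, read 9.75 and 9.82 against 8.60 and 8.20 and fell by 1.39 on the log2 scale (SE 0.15, limma adjusted p = 0.034). CXCR4, the CXCL12 receptor that retains haematopoietic cells in the marrow, read 8.78 and 8.97 against 7.69 and 7.50 and fell by 1.28 on the log2 scale (SE 0.12, limma adjusted p = 0.0232). GPR18, a G protein-coupled receptor, read 8.37 and 8.29 against 7.25 and 7.24 (-1.09, limma adjusted p = 0.0178). In each of these 4 genes both IPA-3 arrays lay below the lower DMSO array by more than replicates differed. SELPLG, the P-selectin ligand PSGL-1, read 8.02 and 8.16 against 7.21 and 7.30 (-0.83, limma adjusted p = 0.0395), and THBD, thrombomodulin, 10.19 and 10.29 against 9.42 and 9.34 (-0.86, limma adjusted p = 0.034). In bulk RNA fewer cells with a transcript and less of it per cell cannot be told apart.

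Most members of the same families were not called, and over all genes 0.128% were called lower and 0.517% higher. Of 24 chemokine and chemoattractant receptors 2 fell (CCR2 and CXCR4) and 1 rose (C3AR1), 6 were lower at an unadjusted p under 0.05 against 8.6% of all genes, and the median was -0.04, with CX3CR1 at -0.67 (limma adjusted p = 0.117). Of 27 eicosanoid genes CYSLTR1 fell and TBXAS1, thromboxane synthase, rose (0.81, limma adjusted p = 0.042), 8 were lower at an unadjusted p under 0.05, and the median was -0.02. ALOX5, the 5-lipoxygenase that starts leukotriene synthesis (-0.57), and the prostaglandin receptor PTGER4 (-0.55) did not pass. Of 90 orphan and adhesion G protein-coupled receptors 0 passed upward, GPR18 fell, and the median was 0.01. Among 12 integrin and adhesion genes ICAM1, NRCAM and CD44 rose and SELPLG fell.

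Of 22 transcription factors of myeloid leukaemia cells MYB and EGR1 fell, and 0.128% of all genes were called lower. MYB, which sustains the leukaemic progenitor state, read 10.65 and 10.58 in DMSO and 9.75 in both IPA-3 arrays, a change of -0.87 (SE 0.09, limma adjusted p = 0.0293). EGR1, an immediate early factor, read 9.33 and 9.32 against 8.41 and 8.33 (-0.96, limma adjusted p = 0.0232), and its other probe differed by -0.52. The other listed factors did not pass, and the list's median was -0.03. At an unadjusted p under 0.05 in limma, 7 of the 22 were lower and 2 higher (8.6% and 6.52% of all genes). In all pairs 10 were lower and 5 higher (28.3% and 19.3% of all genes). GFI1 (-0.67, limma adjusted p = 0.0734) and IRF8, which directs monocyte development (-0.60, limma adjusted p = 0.0667), did not pass. Monocytic markers showed no call: MNDA, a myeloid nuclear antigen, went from 9.83 and 9.80 to 9.01 and 9.16 (limma adjusted p = 0.0548), and the markers' summed level was 13.999 and 14.057 in DMSO against 13.86 and 13.80 with IPA-3.

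Among the 22 AP-1 and immediate early genes EGR1 fell and IER5 rose (0.75, limma adjusted p = 0.0442). Over all genes 0.128% were called lower and 0.517% higher. FOS (-0.81) and FOSL1 (0.77) differed in opposite directions without passing. Among the 18 MAP kinase phosphatases and feedback regulators DUSP4 rose from 5.74 and 6.21 to 7.26 and 7.40 (1.36, SE 0.17, limma adjusted p = 0.0463) and DUSP10 fell from 9.32 and 9.39 to 8.58 and 8.61 (-0.76, limma adjusted p = 0.0365). The list's median was 0.15. DUSP1 and DUSP6, phosphatases on the same list, were not called.

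The transcripts of the kinases that IPA-3 targets were not called. PAK2, the group I member that was measured, read 9.15 and 9.24 in DMSO and 9.21 and 9.29 with IPA-3, a difference of 0.05 (SE 0.09, limma adjusted p = 0.835). The group II members PAK4 and PAK5 differed by 0.16 and -0.19, and PAK1, PAK3 and PAK6 were not analysed here.

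Interferon-induced genes were mostly lower, with 1 call. IFI44L read 7.77 and 7.82 in DMSO against 6.83 and 6.78 with IPA-3, a change of -0.99 (SE 0.09, limma adjusted p = 0.0217). Of 21 measured interferon genes 15 were lower in all 4 pairs, against 28.3% of all genes, 12 were lower at an unadjusted p under 0.05, and the median was -0.36. IFIT3 (-0.79), IFIT2 (-0.64, limma adjusted p = 0.0614) and TRIM22 (-0.62) did not pass, and the chemokine gene CXCL10 stood at 0.97 without passing. With quantile or cyclic loess normalization the median was -0.31 and 15 genes remained lower in all pairs.

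All 20 measured genes of cholesterol synthesis and uptake had differences below 0, and 0 passed in limma. In 9 the unadjusted p was under 0.05 (8.6% of all genes were lower at that level), 14 were lower in all pairs (28.3% of all genes, and 50.8% of the most highly expressed quartile), and the median was -0.25, with MSMO1 at -0.45 and HMGCS1, which makes the precursor of mevalonate, at -0.32. After quantile or cyclic loess normalization 18 of 20 were below 0 and the same number, 14, were lower in all pairs.

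Cell cycle and growth genes had small differences below 0 and no calls. Of 32 mitosis genes 22 were lower in all pairs (median -0.12, BUB1 -0.37), and of 32 genes of the G1 to S transition and DNA replication 20 were (median -0.13, UNG -0.58, MCM3 -0.50). Of 26 genes of the MYC network 17 were (median -0.12, NOP2 -0.35), and of 71 mitochondrial ribosomal proteins 48 were (median -0.13). These lists hold highly expressed genes, and the sign of small differences followed the level. In the quartile of genes with the highest DMSO levels (3721 genes) 50.8% were lower in all pairs and the median was -0.09, while in the lowest quartile 12.95% were and the median was 0.03. With cyclic loess normalization the highest quartile had 38.2% lower and a median of -0.03. Mitosis then had 16 of 32 lower (median -0.07) and the G1 to S list 17 of 32 (-0.07). The MYC network had 13 of 26 lower (-0.08) and mitochondrial ribosomal proteins 39 of 71 (-0.09). Without that normalization, genes lower with an unadjusted limma p below 0.05 numbered 9 for G1 to S and 14 for mitochondrial ribosomal proteins. They numbered 5 for mitosis and 2 for the MYC network, against 8.6% of all genes. Higher ones numbered 1 for the MYC network and 0 for the other lists. What part of these list medians goes with the level was not tested.

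**Figure D3:**
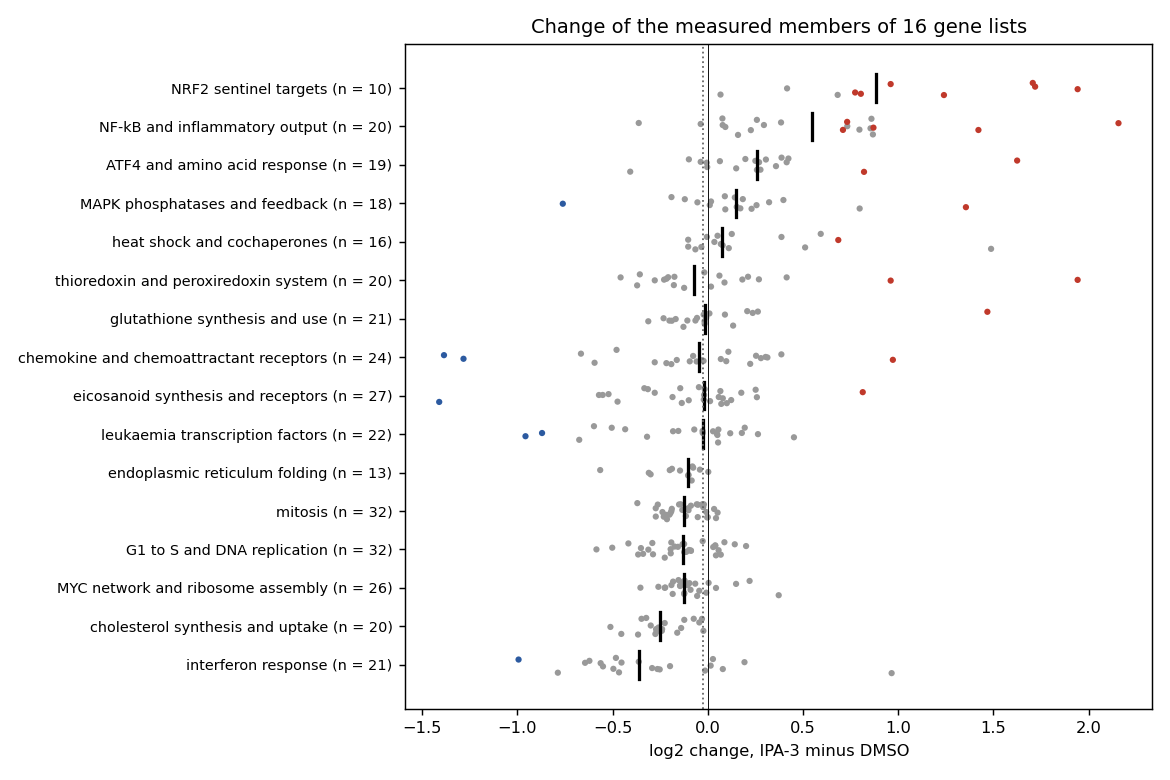
Log2 change with IPA-3 (horizontal axis) of each measured member of 16 gene lists (n beside each name), in red for called rises, blue for called falls and grey for genes not called, with a black bar at each list's median and a dotted line at the median of all genes (-0.02). NRF2 targets have the highest median (0.88), interferon genes the lowest (-0.36), and most lists hold no more than 2 called members.

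Survival and metal genes gave no calls. At an unadjusted p under 0.05, 6.52% of all genes were higher and 8.6% lower. Of 18 BCL2 family and caspase genes 0 passed in limma, with 4 higher and 5 lower at an unadjusted p under 0.05, BCL2A1 at 0.85 and BCL2 at -0.52. Of 11 p53 targets 0 passed, with 3 higher and 1 lower at an unadjusted p under 0.05 and PMAIP1 at 0.46. Of 9 metallothionein and zinc genes 0 passed, with 0 higher and 3 lower at that level and MT1X at -0.62 and MT1G at -0.56. Of large families, 2 of 471 ZNF genes rose and 0 fell, with a median of -0.06, and 1 of 56 TRIM genes (TRIM16) rose. These few calls stand beside 0.517% of all genes called higher and 0.128% called lower.

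The 2 IPA-3 arrays gave like changes for the called genes. Over all genes the standard deviation of the difference between single arrays was 0.180 for the DMSO pair and 0.220 for the IPA-3 pair. For the 4 pairs of an IPA-3 and a DMSO array it was 0.238 to 0.283, above both replicate pairs. By DMSO level, the lowest quartile held 4 rises and 0 falls, the middle ones 25 and 26 rises with 3 and 4 falls, and the highest 22 rises and 12 falls.

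**Figure D4:**
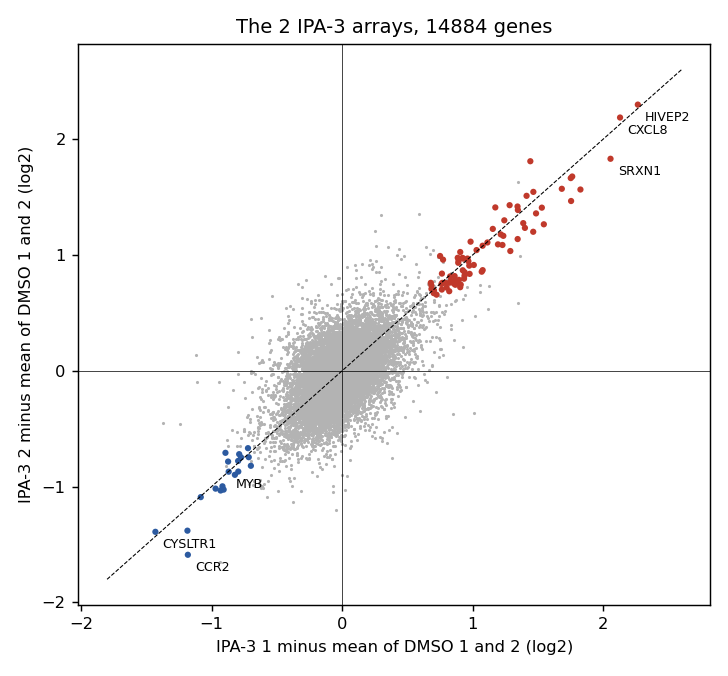
Change in IPA-3 array 2 (vertical axis) against change in IPA-3 array 1 (horizontal axis), each minus the mean of DMSO 1 and 2, on the log2 scale for 14884 genes, with called rises in red, called falls in blue and the line of equal change dashed. The called genes lie close to the line because a small spread between replicates is part of what the test selects.

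Protein-coding genes made up 72 of the 77 rises and all 19 falls, and also 11916 of all 14884 genes tested. Of them 0.764% were called, against 0.645% of all genes. Among 1398 long noncoding RNA genes 3 rose (0.215%), namely MSC-AS1, LINC00622 and CYTOR, and 0 fell. The probes of 2 of 1072 microRNA genes (0.187%), MIR2909 and MIR4632, also rose. Such probes do not separate a mature microRNA from a longer transcript of the locus.

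FRAX-597, the other PAK inhibitor, was compared through its own controls, DMSO 3 and 4, so the 2 responses share no array. The doses were 6 µg/mL and 2 µg/mL, and the values are set side by side without a matched dose. Of the 77 rises with IPA-3, 66 had a FRAX-597 change above 0, against 45.3% of all genes, and of the 19 falls 16 had one below 0, against 54.7% of all genes. In the limma fit of 8 arrays 3 of the 96 were also called for FRAX-597, against 23 of all 14884 genes (0.155%). IL7R changed by 2.10 (SE 0.25, limma adjusted p = 0.0317) from 6.95 and 7.07 in DMSO 3 and 4 to 9.52 and 8.70, and HIVEP1 by 1.69 (SE 0.20, limma adjusted p = 0.0303). MYB fell from 10.98 and 10.97 to 10.12 and 9.97, by 0.93 on the log2 scale (limma adjusted p = 0.0289), and its IPA-3 and FRAX-597 changes differed by 0.06 (SE 0.15).

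Changes with the 2 compounds were also set side by side gene by gene. SRXN1 changed by 0.29 with FRAX-597 (8.93 and 8.76 against 9.24 and 9.03), and the IPA-3 change was 1.65 greater (SE 0.20, limma adjusted p = 0.145). The gaps for OSGIN1 and NRCAM were 1.43 and 1.46 (limma adjusted p = 0.145 for each). HMOX1 changed by -0.03 with FRAX-597, a gap of 1.74 with an SE of 0.70, and GSR by less than 0.01 in size, a gap of 1.47 with an SE of 0.35. HSPA1A stood at -0.85 with FRAX-597 against 0.69 with IPA-3. None of these gaps passed the test of the difference, which called 0 of the 96 genes and 2 of all 14884 (0.0134%), although 34 of the 96 had an unadjusted p under 0.05.

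Among the receptor genes CCR2 stood at -1.52 with FRAX-597 and -1.39 with IPA-3 (difference 0.13, SE 0.51), and CYSLTR1 at -0.97 against -1.41 (difference -0.44, SE 0.20). CXCR4 stood at 0.44 with FRAX-597 against its fall with IPA-3, a gap of -1.73 (SE 0.49, limma adjusted p = 0.632). The FRAX-597 arrays differed widely from each other for some genes: CXCL8 read 10.06 and 4.89 in them and ICAM1 10.64 and 6.60. FRAX-597 1 correlated best with DMSO 3 (0.9865) and FRAX-597 2 with DMSO 4 (0.99), while DMSO 3 and 4 correlated at 0.9816. The fit did not pair these arrays, so the SE of each gap includes this spread. Without FRAX-597 1 the difference was 3.70 for CXCL8, 2.02 for HIVEP2 and 1.97 for VEGFC. Without FRAX-597 2 it was 1.95 for HSPA1A, 1.36 for VEGFC and -1.93 for DUSP10. Leaving out 1 FRAX-597 array sets the other against the mean of DMSO 3 and 4, so each such value mixes the compound with that likeness.

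**Figure D5:**
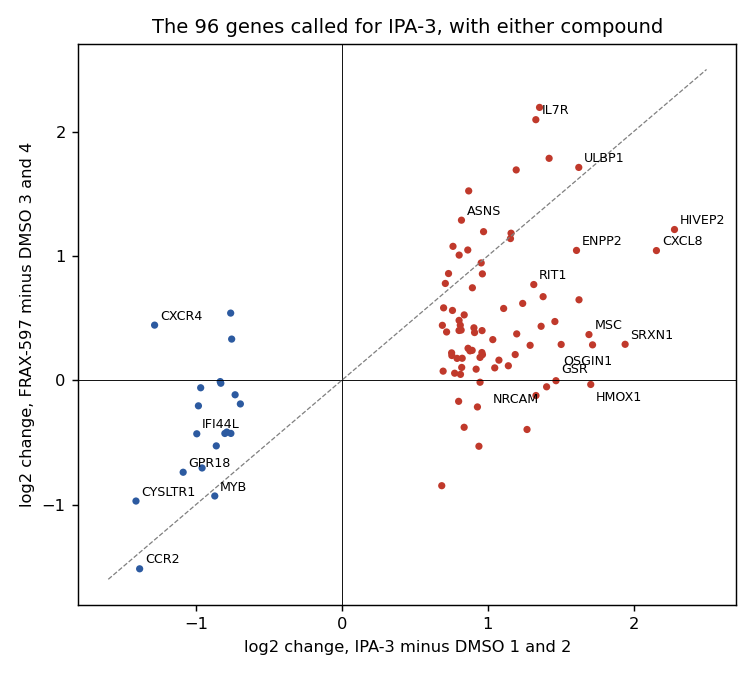
Log2 change with FRAX-597 against DMSO 3 and 4 (vertical axis) and with IPA-3 against DMSO 1 and 2 (horizontal axis) for the 96 genes called for IPA-3, with rises in red, falls in blue and the line of equal change dashed. Most rises lie above 0 on the vertical axis (66 of 77), HMOX1, GSR and NRCAM lie near 0 on it, and CXCR4 lies above 0 among the falls.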

How the data were processed

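Total RNA was hybridised to 1-colour Affymetrix whole-transcript arrays after biotin labelling, per the labels' protocols. The deposited values are log2 expression values made by the authors, 1 per probe and array. Affymetrix Expression Console and the Transcriptome Analysis Console were used, per the submitters' processing notes. How probes were summarised and normalized is not stated there, and no label marks the 2 sets of arrays that differ in scale. Probes took their gene from the platform annotation, and all 16098 named probes matched RefSeq (GRCh38.p14).

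The deposited log2 values entered limma 3.58.1 in R 4.3.3 (lmFit and eBayes, 2 groups of 2 arrays, no covariate) without further scaling. P-values were Benjamini-Hochberg adjusted over 14884 genes, with a threshold of 0.05. The difference between compounds was a contrast in 1 fit of 4 groups over 8 arrays. The fit code was tested on simulated data. The number of arrays limits the precision of every value.

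Named were the 4 response markers, the measured PAK genes, the 16 largest called rises and 12 largest called falls with all array pairs in 1 direction, and up to 4 members per list with the smallest adjusted p. Other genes in the text, such as TNF, UGDH and the smaller called changes, were chosen after their values were seen. The members and lists were chosen with earlier results of these data known. The planned background level used olfactory receptor genes, of which 1 was named here, so keratin-associated protein genes replaced them after the data were seen. Lists with fewer than 5 measured members (proteasome, RAB GTPases, histones and complex I among them) were not described. Alternatives covered scaling, probe choice, dim genes, the variance prior, pooled controls and leaving out each array. A further list is not reported here.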

Additional observations from a re-analysis of the deposited data

Results flagged for a closer look

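Of 190 genes examined over the 4 DMSO arrays, 13 had 1 array whose gap to the nearest other array took up more of the full range than Dixon's 95% critical value of 0.829 allows. Chance gives such a gap in about 1 in 20 genes, and the 4 arrays come from sets on different scales. The gap's share of the range was 0.848 for ANKRD28, 0.921 for CD44 (6.72 to 6.87 in 3 arrays and 8.64 in the other), 0.972 for DENND5A and 0.881 for ENPP2. It was 0.847 for G0S2, 0.889 for GPR18 (8.29 to 8.43 and 9.60), 0.889 for NRP2 (5.25 to 5.46 and 7.13) and 0.867 for RELB. Among genes not called it was 0.843 for BIRC5, 0.896 for MSMO1, 0.903 for EPCAM, 0.893 for KEAP1 and 0.885 for RRM2B, the last 3 with the odd array lowest. The comparison of IPA-3 with DMSO 1 and 2 uses neither of the other DMSO arrays.

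Among the 37519 probes without a gene name, 154 were at least 2-fold higher with IPA-3 in the mean and higher in all 4 array pairs, and 99 were that much lower. None was called by limma when all 53617 probes were tested, and 5451 probes had an unadjusted p under 0.05 in that fit.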

How the results depend on the processing

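The 96 calls became 5 in 1 fit over 8 arrays, 0 with 4 DMSO arrays pooled (847 genes at an unadjusted p under 0.05) and 0 with every probe tested as its own feature. They became 459 (210 higher and 249 lower) when the prior variance followed the level. They became 538 (216 higher and 322 lower, 77 of the 96 genes among them) when genes under the keratin-associated protein level were left out. That alternative was added after seeing the data. Rises outnumbered falls in the main fit (77 and 19) but not in these 2 settings. Leaving out 1 of the 4 arrays gave 0 to 2 calls, with 1129 to 2941 genes at an unadjusted p under 0.05. Quantile normalization (97), subtracted medians (101), cyclic loess (101, also added later), mean of probes (93) and robust eBayes (89) stayed close. In that order they kept 91, 93, 94, 92 and 89 of the 96 genes. SELPLG was not called with quantile or cyclic loess normalization, DUSP4 not with quantile normalization or robust eBayes, and EGR1 not with mean of probes. HSPA1A kept its call in 7 of 9 settings that used the same 4 arrays. Every called gene kept its direction except C3orf80, at -0.25 with pooled controls, where 1 scale is set against another. Leaving out 1 of the 4 arrays could not reverse a called gene, because all its array pairs have the same sign. The cause was not tested for the other settings. The count for the IPA-3 minus FRAX-597 difference, 2, ranged from 0 to 28 when 1 array was left out. No paired analysis was possible because the IPA-3 arrays carry no replicate numbers that match the DMSO arrays in the labels. With 2 arrays a group, a miss at the threshold says little about the absence of a change, and array signals below the background level cannot be told from unexpressed genes.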
